A study of Mus musculus with 6 samples.

Results

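The genes described here encode the factors that copy, package and transcribe the mitochondrial genome, together with nuclear transcription factors known to drive their expression. The set holds 10 genes, named by symbol for their function and chosen with earlier results of these data known, of 23282 rows in the count tables: Tfam, Nrf1, Gabpa, Gabpb1, Tfb1m, Tfb2m, Polrmt, Polg, Polg2 and Ssbp1. All 10 symbols stood on 1 row each and all 10 passed the filter on low counts, beside 13132 genes tested in all. They were measured in acinar cells, the enzyme-secreting cells of the exocrine pancreas, isolated from C57BL/6J mice and kept in primary culture with serum, epidermal growth factor and trypsin inhibitor. The 3 control libraries are labelled wild type. The 3 conditional knock-out (cKO) libraries are labelled ERRgamma -/- and by that label lack the estrogen-related receptor gamma (ERRγ), the product of Esrrg, a nuclear receptor known for driving genes of mitochondrial respiration. The sources used here do not give the driver of the deletion, the exon removed, the time in culture or the age and sex of the mice. The labels do not say whether the libraries of a group came from separate animals, so p-values cover only the spread from library to library, and part of it may be technical.

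Mitochondria keep a small circular genome of their own, but every protein that copies and reads it is encoded in the nucleus. TFAM packs mitochondrial DNA into nucleoids and bends the promoters, TFB2M opens them, and POLRMT, a single-subunit RNA polymerase, transcribes both strands. POLG with its accessory subunit POLG2 copies the DNA, while the single-stranded DNA-binding protein SSBP1 coats the strand that is laid bare. Nuclear respiratory factor 1, encoded by Nrf1, and the GABP complex, also called nuclear respiratory factor 2, bind the promoters of many of these genes, and PGC-1α, encoded by Ppargc1a, is a coactivator of NRF1, GABP and the ERR receptors. The symbol Nrf1 here is the respiratory factor, not the stress factor Nfe2l1 that shares the short name.

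The promoters were read first, because they show which of these regulators have an exact core sequence beside each gene. Promoter windows of RefSeq (build GRCm38.p6, 250 bases before to 50 after a start site) matched all 10 genes, with 12 windows. Both strands were searched for the core of the NRF1 site (CGCATGCG), the core bound by GABP and other ETS factors (CCGGAAG) and the ERR site (TNAAGGTCA); the 3 motifs do not overlap in these windows. The ETS core stood in 6 of the 10 genes, against 19.0% of the 9643 tested genes with a window and 8.86% of all 32851 windows. The NRF1 core stood in Gabpa and Tfb2m, against 4.20% of tested genes and 1.87% of windows. The ERR site stood in 0 of the 10 genes, against 0.892% of tested genes and 1.28% of windows. Windows of the 10 genes were richer in G and C (median 59.7%) than all windows (52.7%), and a match is a run of letters, not a measured binding site. Only exact letters were searched, so a gene without a match may still hold a variant of the site. The 6 stretches with the ETS core are printed because they show the shared letters and their place, with the core in capitals (CTTCCGG is the same core on the other strand):
Tfam, chr10:71238075-71238101, minus strand, core beginning 47 bases before the start site: ctgccgcggaCCGGAAGtccgggcttc
Gabpa, chr16:84835021-84835047, plus strand, core beginning 93 bases before the start site: agggtaagtgCTTCCGGgtccctcagc
Polrmt, chr10:79746608-79746634, minus strand, core beginning 43 bases before the start site: cctaagagcgCTTCCGGcagtcgcaga
Polg, chr7:79466295-79466321, minus strand, core beginning 38 bases before the start site: aggacctcacCCGGAAGtccctctgca
Polg2, chr11:106779550-106779576, minus strand, core beginning 29 bases before the start site: gggtgacgctCTTCCGGgggcgtggtc
Ssbp1, chr6:40471411-40471437, plus strand, core beginning 47 bases before the start site: gctccgtgcgCCGGAAGcgagccgctg
Counted from the RefSeq start site, the core lay 29 to 47 bases before it in 5 of these genes and 93 bases before it in Gabpa. The annotated gene spans given below (GENCODE) begin further upstream for Tfam, Gabpa, Polg and Ssbp1, so there the core lies inside the annotated gene. Where the core lies in the windows of all genes was not tested.

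The promoters of Nrf1 and Tfb2m are printed whole, because these were the members that passed the test described below. The capitals in Tfb2m mark the NRF1 core, which begins 12 bases after the start site. The window of Nrf1 at its first start site holds none of the 3 motifs.
Nrf1, chr6:30047738-30048037, plus strand: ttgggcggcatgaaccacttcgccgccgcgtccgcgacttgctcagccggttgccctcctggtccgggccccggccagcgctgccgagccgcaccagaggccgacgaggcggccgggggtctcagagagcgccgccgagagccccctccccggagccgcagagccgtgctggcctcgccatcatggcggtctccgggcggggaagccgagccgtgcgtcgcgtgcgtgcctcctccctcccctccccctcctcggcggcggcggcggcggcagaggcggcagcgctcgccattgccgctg
Tfb2m, chr1:179546227-179546526, minus strand: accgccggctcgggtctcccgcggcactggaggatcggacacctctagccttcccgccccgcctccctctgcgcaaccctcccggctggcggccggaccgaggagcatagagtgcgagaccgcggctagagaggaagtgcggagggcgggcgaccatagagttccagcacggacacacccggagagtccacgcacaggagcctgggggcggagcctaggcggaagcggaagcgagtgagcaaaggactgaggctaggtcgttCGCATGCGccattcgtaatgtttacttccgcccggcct

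The control libraries held 23009041 to 25183465 counts and the cKO libraries 15170173 to 16963782. The effective library sizes given by TMM scaling, which centres the bulk of genes near 0, averaged 7.97 M counts in control and 50.9 M in cKO. Levels below are CPM, a counts-per-million value on that effective size, and fold changes are log2 values of cKO over control. The scale decides many directions: the median log2 fold change of all tested genes was 0.10 on the TMM scale and 3.36 on library totals. All 10 factors took a higher share of total counts in every cKO library than in any control library. The exact 2-sided permutation p was 0.1 for each, which is the lowest value that 3 against 3 libraries allow. For Polg2 the filter on low counts fixed this outcome, so its p is not a test. How many of all genes part on this share was not tested. On library totals edgeR called 12653 of all tested genes higher and 53 lower, so a higher share is not particular to the factors. "Rose" and "fell" are therefore meant relative to the bulk of genes. The 10 factors together had only 243 to 287 counts in a control library and 1034 to 1780 in a cKO library, so counting error is large in control.

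Esrrg itself had 0 counts in the controls and, from replicate 1 to 3 of cKO, 0, 9 and 1, and a 3' tag outside the deleted part would not check the genotype. The groups also differed in cell-type markers. The 10 acinar markers all fell, with a summed level of 316806 to 352537 CPM in control and 10937, 48687 and 13223 CPM in cKO replicates 1, 2 and 3. Fibroblast and stellate markers rose in 8 of 9 cases (724 to 819 CPM summed in control, 3568 to 5096 in cKO), as did 8 of 8 macrophage and monocyte markers (73.2 to 84.7 and 218 to 484 CPM) and 4 of 4 mesothelial markers (17.5 to 23.4 and 90.0 to 110 CPM). Of 6 tested lymphocyte markers 2 rose (2.79 to 10.4 and 18.4 to 41.4 CPM), of 7 endothelial markers 3 fell (55.3 to 62.1 and 33.3 to 50.4 CPM), of 7 tested duct markers 2 rose and 4 fell (200.2 to 241 and 104 to 118 CPM), and of 8 islet markers 1 fell (591 to 948 and 409 to 845 CPM). The most abundant marker of each list had a log2 fold change of -3.41 for Cela1 (acinar), 2.37 for Col1a2 (fibroblast), 2.31 for Csf1r (macrophage), 2.45 for Lrrn4 (mesothelial), 2.78 for Ptprc (lymphocyte), -0.86 for Plvap (endothelial), -1.82 for Sox9 (duct) and -0.05 for Ins2 (islet). None of these lists was at 0. In such bulk samples, fewer cells of a type and less RNA per cell cannot be told apart, and the part of cell composition in the values of the 10 factors was not tested.

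Among the 10 factors, Nrf1 rose and Tfb2m fell relative to the bulk of genes, and the other 8 did not pass the test. Of all tested genes, 24.0% were called higher, 20.7% lower and 44.7% in either direction, so 2 calls in 10 is a smaller share than that of all genes. The median log2 fold change of the 10 was 0.07 (0.06 without Polg2, which passed the filter on its cKO counts alone), beside 0.10 over all tested genes. The CPM of the groups did not overlap for 4 of the 10, namely Nrf1 and Polg2, higher in cKO, and Tfam and Tfb2m, lower, against 56.2% of all tested genes. The summed level of the 10 factors was 32.87 ± 1.76 CPM in control and 30.04 ± 0.993 CPM in cKO (SD, n = 3 each).

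**Figure D1:**
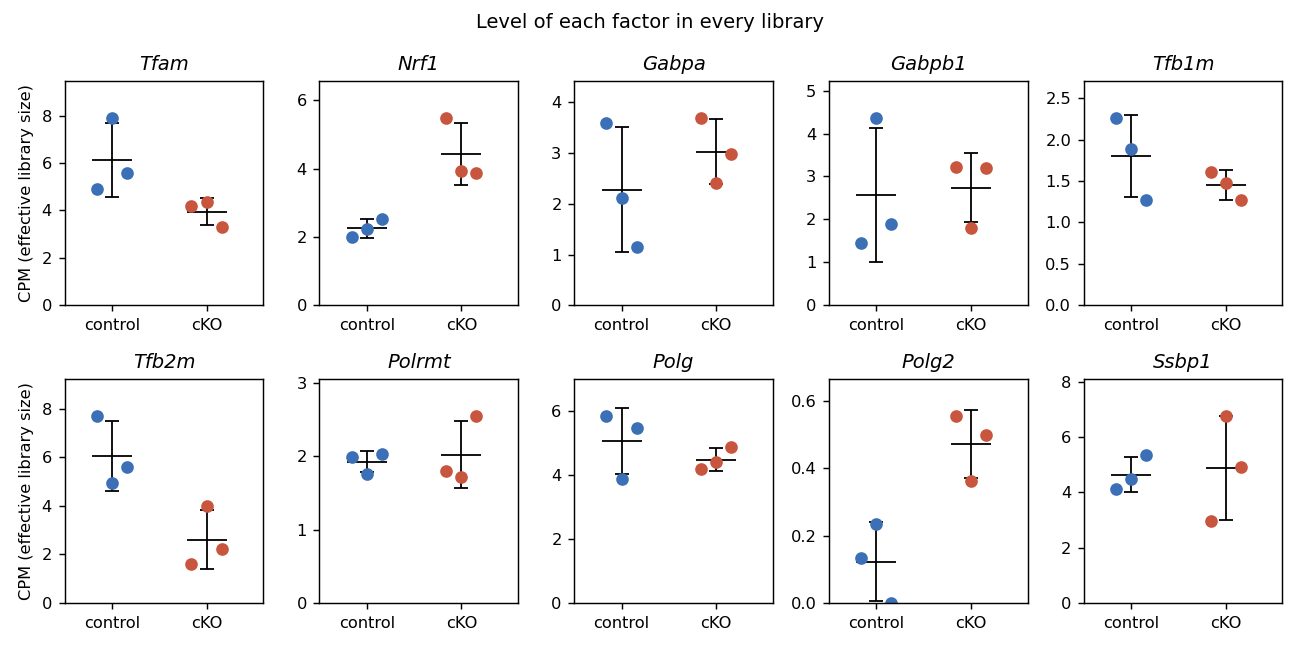
CPM of each factor, per effective library size, in the 3 control (blue) and 3 cKO (red) libraries, with replicates 1 to 3 from left to right within a group, the mean as a bar and the SD as whiskers. The groups part for Tfam, Nrf1, Tfb2m and Polg2 and overlap for the other 6 genes.

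Nrf1 encodes the nuclear respiratory factor that binds GC-rich palindromes as a dimer (chromosome 6, 30047988 to 30153458, plus strand, GRCm38). Control replicates 1, 2 and 3 gave 15, 19 and 20 Nrf1 counts, and the cKO replicates 325, 130 and 232. Scaled, its level was 1.99, 2.24 and 2.54 CPM in control and 5.47, 3.92 and 3.87 CPM in cKO. All cKO libraries stood above all control libraries, with cKO replicate 1 the highest. The log2 fold change was 0.97 ± 0.32 (SE; 95% interval 0.28 to 1.66; edgeR adjusted p = 0.0239), a rise of 1.96-fold. The call was lost when any of 4 libraries was left out: control replicate 1 (adjusted p = 0.0634) or 2 (0.0546), or cKO replicate 1 (0.131) or 3 (0.0515).

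GABP, the other nuclear respiratory factor, joins the ETS protein GABPA, which binds DNA, with GABPB1, which carries the activation domain. Gabpa (chromosome 16, 84834925 to 84863779, plus strand) stood at 3.59, 2.12 and 1.14 CPM in control replicates 1 to 3 and 3.69, 2.41 and 2.98 CPM in cKO. The groups overlapped, and the control libraries alone differed by more than their distance from cKO. Its log2 fold change was 0.42 ± 0.41 (SE; 95% interval -0.45 to 1.29; edgeR adjusted p = 0.434), and it ran from 0.10 without control replicate 3 to 0.89 without control replicate 1, with no call in either. Gabpb1 (chromosome 2, 126627442 to 126676337, minus strand) stood at 1.46, 4.35 and 1.90 CPM in control and 3.21, 1.81 and 3.20 CPM in cKO. Here control replicate 2 was the highest of the 6 libraries, and the log2 fold change was 0.09 ± 0.43 (SE; 95% interval -0.83 to 1.00; edgeR adjusted p = 0.886). The ratio of Gabpa to Gabpb1 counts within a library, which no scaling enters, ranged from 0.486 to 2.46 in control and from 0.932 to 1.33 in cKO. Gabpa lies head to head with Atp5j, a subunit gene of ATP synthase whose start lies 700 bases away, and the annotated genes share 701 bases. Atp5j fell by 1.45 ± 0.22 on the log2 scale (edgeR adjusted p = 0.000143), from 366, 382 and 338 counts in control to 645, 753 and 999 counts in the deeper effective libraries of cKO. The difference between the fold changes of these neighbours was not tested.

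Of the transcription machinery, Tfb2m, the promoter-opening factor, fell. Tfb2m (chromosome 1, 179528055 to 179546267, minus strand) was counted 58, 42 and 44 times in control and 96, 132 and 134 times in cKO, or 7.70, 4.94 and 5.59 CPM and 1.62, 3.98 and 2.23 CPM. All cKO libraries stood below all control libraries, with cKO replicate 2 the closest to control. That library also had the highest sum of acinar markers among the cKO libraries, and its part in the value was not tested. The log2 fold change was -1.23 ± 0.36 (SE; 95% interval -1.99 to -0.48; edgeR adjusted p = 0.0109), and on library totals it turned to 1.90, still below the median of 3.36 over all genes on that scale. Without control replicate 1 the call was lost (-1.02; adjusted p = 0.0731), and without cKO replicate 2 the fold change was -1.64 (adjusted p = 0.000407).

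Tfb1m, the paralog of Tfb2m, encodes a methyltransferase that modifies the small ribosomal RNA of mitochondria (chromosome 17, 3519256 to 3557781, minus strand). It stood at 2.26, 1.88 and 1.27 CPM in control and 1.62, 1.48 and 1.27 CPM in cKO. The groups overlapped, and the log2 fold change was -0.31 ± 0.44 (SE; 95% interval -1.25 to 0.63; edgeR adjusted p = 0.599). Its 3' end lies inside Tiam2, a gene on the other strand that overlaps it by 12089 bases. Tiam2 was counted 14, 16 and 11 times in control and 93, 46 and 56 times in cKO, close to the 17, 16, 10, 96, 49 and 76 counts of Tfb1m in the same order. Without the strand setting of the counting, reads of these genes cannot be told apart, and the value of Tfb1m is uncertain for that reason. The ratio of Tfb2m to Tfb1m counts was 3.41, 2.63 and 4.40 in control and 1.00, 2.69 and 1.76 in cKO, with an overlap at cKO replicate 2.

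Tfam, the packaging and promoter-bending factor, stood lower in every cKO library than in any control library but did not pass the test. Tfam (chromosome 10, 71225464 to 71238280, minus strand) gave 37, 67 and 44 control counts and 249, 144 and 197 cKO counts, or 4.91, 7.88 and 5.59 CPM and 4.19, 4.34 and 3.28 CPM. Control replicate 2 was the highest library and cKO replicate 3 the lowest. The log2 fold change was -0.64 ± 0.28 (SE; 95% interval -1.24 to -0.05; unadjusted p = 0.0351 and adjusted p = 0.0723 in edgeR), and it was 2.60 on library totals. In libraries thinned to 1 effective size by a random draw that was not repeated, it passed (-0.92, edgeR adjusted p = 0.0290). Without control replicate 2 it was -0.41 (edgeR adjusted p = 0.297). The ratio of Nrf1 to Tfam counts, which needs no scaling, did not overlap between groups: 0.405, 0.284 and 0.455 in control against 1.31, 0.903 and 1.18 in cKO. These ratios were chosen after their values were seen and are a description. The ratios of Tfb2m to Tfam, of Polrmt to Tfam and of Polg to Ssbp1 were also taken, and their groups overlapped. How many pairs among all genes part in this way was not tested.

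Polrmt, the RNA polymerase gene (chromosome 10, 79736123 to 79746581, minus strand), gave 15, 15 and 16 control counts and 107, 57 and 153 cKO counts. Scaled, these were 1.99, 1.77 and 2.03 CPM against 1.80, 1.72 and 2.55 CPM, with cKO replicate 3 above all other libraries. The log2 fold change was 0.07 ± 0.40 (SE; 95% interval -0.78 to 0.92; edgeR adjusted p = 0.896). The ratio of Tfb2m to Polrmt counts was 3.87, 2.80 and 2.75 in control and 0.897, 2.32 and 0.876 in cKO, so it did not overlap. This ratio too was chosen after its values were seen and is a description. The ratios of Tfb2m to Tfam and to Tfb1m overlapped.

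The DNA replication genes did not pass the test. Polg, the catalytic subunit of the mitochondrial DNA polymerase (chromosome 7, 79446231 to 79466362, minus strand), stood at 5.84, 3.88 and 5.46 CPM in control and 4.17, 4.40 and 4.87 CPM in cKO. The cKO values lay within the control range, and the log2 fold change of -0.17 ± 0.27 (SE; edgeR adjusted p = 0.637) had a 95% interval of -0.75 to 0.41, the narrowest of the 10. The 3' end of Polg lies within Fanci on the other strand, which overlaps it by 4034 bases and gave 19, 14 and 24 control counts and 115, 55 and 99 cKO counts. Polg itself gave 44, 33 and 43 and then 248, 146 and 292, more than Fanci in every library; how many reads they share was not tested.

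Ssbp1, the gene of the single-stranded DNA-binding protein (chromosome 6, 40471352 to 40484700, plus strand), stood at 4.12, 4.47 and 5.33 CPM in control. In cKO it stood at 2.96, 6.75 and 4.92 CPM, the lowest and the highest value of the 6 libraries among them. The log2 fold change was 0.06 ± 0.32 (SE; 95% interval -0.63 to 0.75; edgeR adjusted p = 0.891).

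Polg2, the accessory subunit that tightens the grip of POLG on DNA (chromosome 11, 106768253 to 106779537, minus strand), was counted 1, 2 and 0 times in control and 33, 12 and 30 times in cKO. Control replicate 3, with no count, still leaves room for a level of 0.381 CPM (3 counts). Of the cKO levels of 0.555, 0.362 and 0.500 CPM the one of replicate 2 lies within that limit. For control replicates 1 and 2, which had counts, the limit is higher and was not worked out. The pooled 3 control and 75 cKO counts give a ratio of 3.92 on effective sizes, with an exact 95% interval of 1.29 to 19.4 for counting error only. Polg2 passed the filter on low counts, which is set on library totals, through its cKO libraries alone. That fixes a higher share of total counts in cKO. The ratio on effective sizes and its interval are a description, not support for a rise. The edgeR test across libraries was not passed (log2 fold change 1.90 ± 0.94, SE; 95% interval -0.11 to 3.90; adjusted p = 0.115), and the fold change ran from 1.34 without control replicate 3 to 2.80 without control replicate 2. The last 542 bases of Polg2 are shared with Milr1, a receptor gene of myeloid and mast cells on the other strand, which rose by 1.81 ± 0.63 (edgeR adjusted p = 0.0320) from 0, 18 and 6 to 223, 130 and 164 counts. Macrophage markers rose in the same libraries, and whether reads of Milr1 enter the count of Polg2 was not tested.

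**Figure D2:**
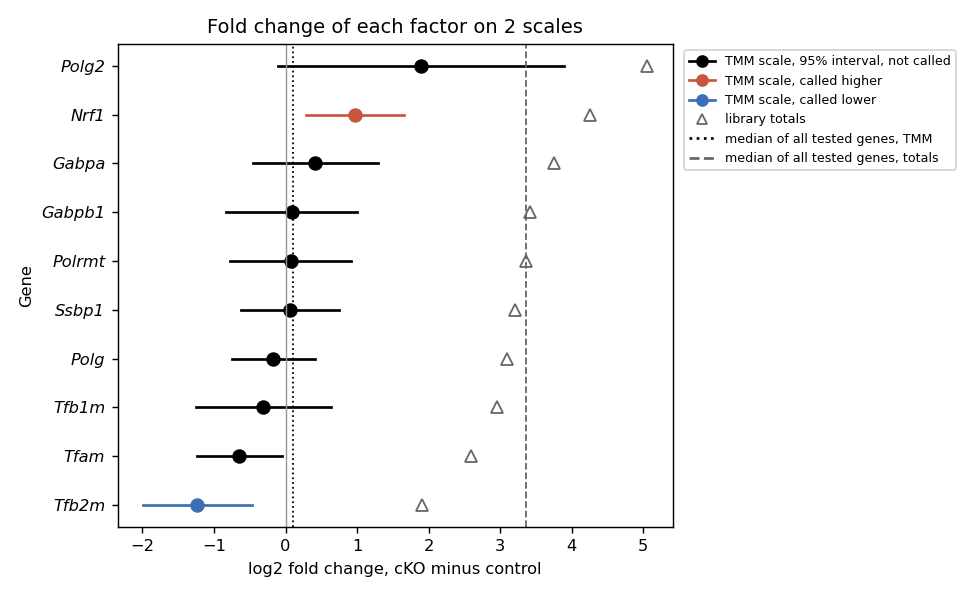
Log2 fold change of each factor, cKO over control, on the TMM scale with its 95% interval (circles, coloured where called) and on library totals (triangles), with the median of all tested genes on each scale (vertical lines). On the TMM scale Nrf1 was called higher and Tfb2m lower; on library totals all 10 lay above 0, Tfb2m at 1.90 furthest below the median of 3.36.

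The factors were then set beside the nuclear genes whose products work in the same organelle. Within each library, the level of a factor was taken relative to the median of 79 respiratory chain genes or 77 mitochondrial ribosome genes, which nearly removes the scaling factor. The median factor stood at -4.15, -3.98 and -4.39 (log2) relative to respiratory chain genes in control and -2.77, -3.16 and -2.88 in cKO. This is a shift of 1.24 on the log2 scale with no overlap between groups. Relative to mitochondrial ribosome genes it stood at -1.80, -1.72 and -2.16 in control and -0.997, -1.25 and -1.10 in cKO, a shift of 0.78. In the same fit 71 of the 79 respiratory chain genes fell and 2 rose (median -1.08), and 37 of the 77 mitochondrial ribosome genes fell and 0 rose (median -0.56). The median log2 fold change was 0.07 for the 10 factors, beside 0.10 for all tested genes. A shift of this kind is therefore shared by the bulk of genes and is not particular to the factors. How many of all genes would not overlap on this measure was not tested. Relative to the respiratory chain, Nrf1 shifted by 1.97 and Polrmt by 1.08 without overlap, as did Gabpa, Tfb1m, Polg and Ssbp1. Polg2 did not overlap either, but it had 1, 2 and 0 control counts and passed the filter through its cKO libraries alone. Its shift is a description, not support for a rise. Tfam (0.43), Gabpb1 (1.23) and Tfb2m (-0.23) overlapped. These relative levels carry no test, since the set was chosen with results of these data known.

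**Figure D3:**
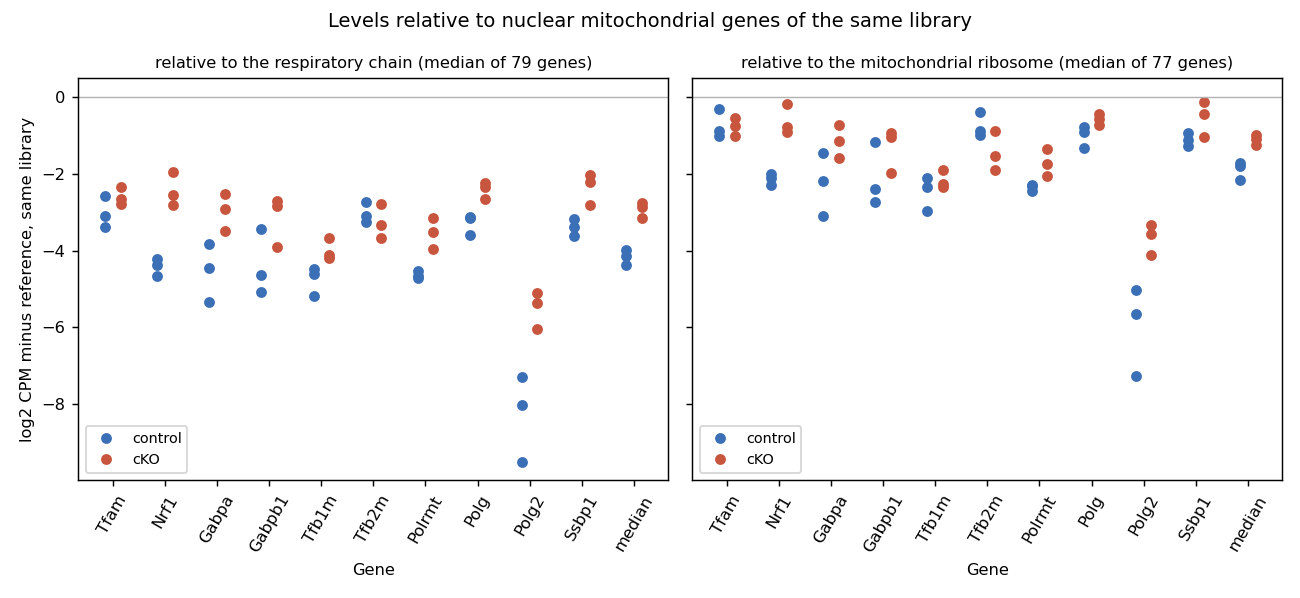
Log2 CPM of each factor minus the median log2 CPM of respiratory chain genes (left) or mitochondrial ribosome genes (right) in the same library, for control (blue) and cKO (red); the last position is the median of the 10 factors. The median shifted by 1.24 on the left and 0.78 on the right. The reference genes had a median log2 fold change of -1.08 (left) and -0.56 (right), beside 0.10 for all tested genes. Tfam, Gabpb1 and Tfb2m overlapped in both panels, and Gabpa, Tfb1m and Ssbp1 in the right panel only.

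Other genes that act on the mitochondrial genome and its RNA were taken from 7 lists of 93 genes, of which 91 stood in the tables and 84 were tested. Of these, 7 rose and 19 fell (median -0.26) relative to the bulk of genes, beside 24.0% of all tested genes called higher and 20.7% called lower. The share that fell is thus near that of all genes and the share that rose is below it. On library totals 81 were called higher and 0 lower, and each gene named below as falling except Ppargc1a turned positive. Among 3 tested genes of mitochondrial transcription, Mterf4, whose product acts in assembly of the mitochondrial ribosome, rose by 1.98 ± 0.25 (edgeR adjusted p = 1.99e-05), from 32, 47 and 47 counts to 1311, 469 and 1567. The 3' ends of Mterf4 and of the gene Sned1 overlap by 1855 bases on opposite strands, and Sned1 was counted 0, 5 and 0 times in control and 7, 0 and 0 in cKO. The elongation factor gene Tefm (-0.16 ± 0.59) and Mterf3 (0.51 ± 0.75), with at most 19 counts in a control library, did not pass.

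Among 13 genes of mitochondrial DNA replication and the nucleoid, 1 fell and 0 rose (median -0.25). It was Clpx (-1.58 ± 0.28), the unfoldase of a matrix protease, which stood at 12.1 ± 1.61 CPM in control and 4.09 ± 1.68 CPM in cKO (SD, n = 3 each). Lonp1, the protease that degrades unbound TFAM, had a log2 fold change of 0.41 ± 0.18 and Atad3a, a nucleoid-associated membrane ATPase gene, of -0.50 ± 0.24; neither passed. Lonp1 did pass among genes with at least 10 CPM in 3 libraries (0.63; edgeR adjusted p = 0.00794), without cKO replicate 1 (0.52; 0.0482) and on library totals (3.64).

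Genes that supply nucleotides for mitochondrial DNA went both ways, with 2 of 10 higher and 2 lower (median 0.08). Rrm1, a subunit gene of ribonucleotide reductase, rose by 1.26 ± 0.25. Samhd1, a dNTP hydrolase gene known for its high level in myeloid cells, rose by 2.03 ± 0.23. Macrophage markers rose in the same libraries, and the part of macrophages in this value was not tested. Suclg1, a succinyl-CoA ligase subunit gene, fell by 1.62 ± 0.22, from 54.2 ± 11.3 to 17.6 ± 5.07 CPM (SD, n = 3 each).

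Of 18 genes that process, stabilise or degrade mitochondrial RNA, 9 fell and 0 rose (median -0.79); the difference from the other lists was not tested. Hsd17b10, a subunit gene of mitochondrial RNase P, fell by 1.54 ± 0.17 (edgeR adjusted p = 7.21e-06), from 29.04 ± 2.21 to 10.01 ± 1.33 CPM (SD, n = 3 each). Rexo2, an exonuclease gene for short RNAs, fell by 1.31 ± 0.17 and Lrpprc, which keeps mitochondrial messenger RNAs stable, by 1.13 ± 0.20. On library totals all 3 turned positive (1.69, 1.92 and 2.05), below the median of 3.36.

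Of 16 RNA modification genes, 3 fell and 0 rose (median -0.47). These were Mto1, needed to modify transfer RNAs (-2.22 ± 0.35), Cdk5rap1 (-1.47 ± 0.54) and Trit1 (-0.95 ± 0.36). Without control replicate 1 neither Cdk5rap1 (edgeR adjusted p = 0.186) nor Trit1 (0.114) passed; the call of Cdk5rap1 was also lost without any 1 of the cKO replicates, and that of Trit1 without control replicate 2, cKO replicate 1 or cKO replicate 3. Translation factors had 1 of 11 higher and 2 lower (median -0.20): the elongation factor gene Gfm1 fell by 1.30 ± 0.33, the initiation factor gene Mtif3 by 0.80 ± 0.26, and the ribosome recycling factor gene Gfm2 rose by 0.84 ± 0.29. Both Mtif3 (-0.50; edgeR adjusted p = 0.156) and Gfm2 (0.60; 0.0962) lost their call without control replicate 1 and also without cKO replicate 3, Mtif3 without control replicate 2 and Gfm2 without cKO replicate 1. The value of Gfm2 is uncertain, since reads from the other strand could enter its count. The 3' end of Mtif3 lies within Gtf3a on the other strand, which fell by 0.96 ± 0.26. Gtf3a over Mtif3 counts was 0.8077, 0.8131 and 0.9048 in control and 0.7183, 0.7474 and 0.7525 in cKO, without overlap. The value of Mtif3 is uncertain too, and how many reads these genes share was not tested.

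**Figure D4:**
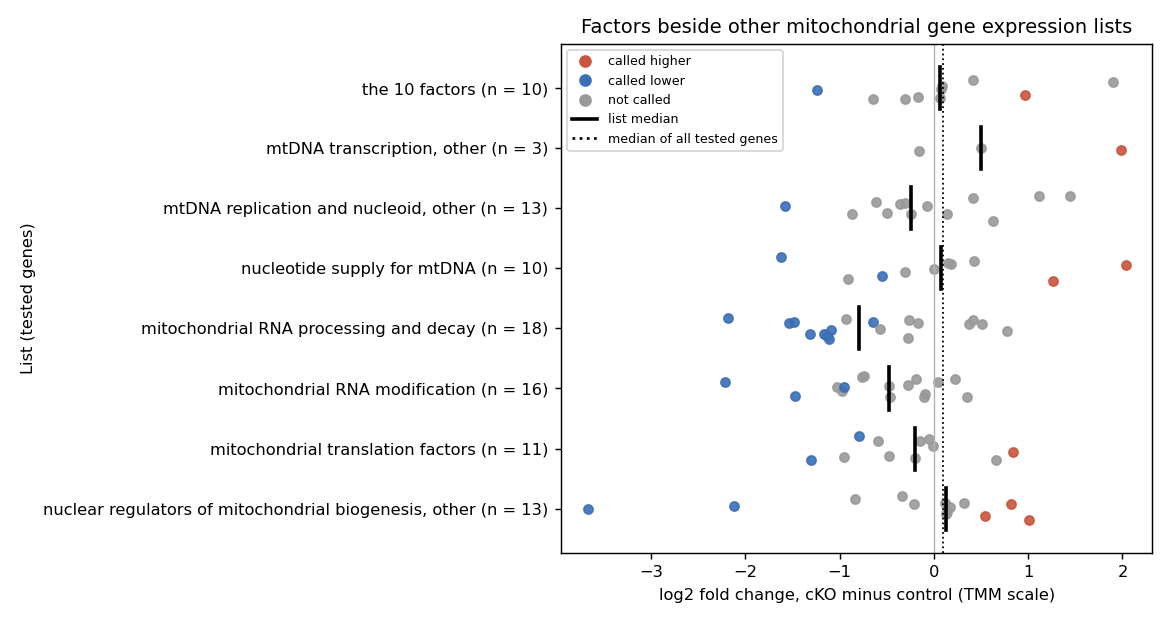
Log2 fold change on the TMM scale of the 10 factors (top) and of the tested genes of 7 other lists, each point a gene, red where called higher and blue where called lower, with each list's median as a bar and the median of all tested genes as a dotted line. The list of RNA processing and decay has a median of -0.79 and 9 of 18 genes called lower, while the 10 factors have a median of 0.07; on library totals the 10 factors all lie above 0.

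Among 13 tested nuclear regulators of mitochondrial biogenesis outside the 10, 3 rose and 2 fell (median 0.13). Ppargc1a gave 7, 26 and 12 control counts and 0, 9 and 11 cKO counts, and fell by 3.67 ± 0.90 (edgeR adjusted p = 0.00427; -0.59 and not passed on library totals). Prkaa2, a catalytic subunit gene of the energy sensor AMPK, fell by 2.12 ± 0.37, from 7.11 ± 1.69 to 1.67 ± 0.824 CPM (SD, n = 3 each). Hcfc1, a transcriptional coregulator known to bind GABP, rose by 0.54 ± 0.20 (edgeR adjusted p = 0.0366), a call lost when control replicate 2 (0.0640), control replicate 3 (0.131), cKO replicate 1 (0.102) or cKO replicate 3 (0.0987) was left out, and in libraries thinned to 1 effective size (0.34; 0.224). Esrra, another ERR receptor gene, had a log2 fold change of 0.13 ± 0.17 and did not pass (edgeR adjusted p = 0.550). The 3' end of Esrra overlaps that of Trmt112 on the other strand by 73 bases.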

How the data were processed

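The tables the authors deposited hold a raw count for each gene symbol in 6 libraries of 3' tag sequencing (Lexogen QuantSeq, per the labels' protocols). The submitters' processing notes name the tools Bowtie2 and edgeR, with mm10 and GRCm38 as builds; the sources used here do not give the counting tool, annotation or strand setting, and no molecular identifiers are described, so intervals and floors (3 counts) cover counting error only. The total per library was 15170173 to 25183465 counts; 0 rows named no gene.

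Genes kept by filterByExpr (minimum count 10, total 15) were fitted across all genes with edgeR 4.0.16 in R 4.3.3 (TMM, robust glmQLFit, glmQLFTest, Benjamini-Hochberg threshold 0.05). The fit was also run on simulated data drawn from the control composition. Those data lack the difference in composition between these groups, so they do not test the scaling. SE is the fold change over the square root of F. Relative levels used log2 CPM with a prior count of 2. Alternatives were DESeq2 1.42.0, 2 other scalings, 2 other filters, thinning, a replicate block and leaving out each library. Thinning used a random draw that was not repeated. Coordinates are from GENCODE (GRCm38). The 10 genes and all lists were chosen with earlier results of these data known. Named were all 10, up to 3 genes per list by smallest p, the most abundant marker per list, and Esrrg, Esrra and Ppargc1a; overlapping neighbours and the count ratios were added after their values were seen. The labels do not say whether replicate numbers pair the libraries, and same-numbered libraries showed no shared deviation. The result of 1 overlapping neighbour is not reported here.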

Additional observations from a re-analysis of the deposited data

How the results depend on the processing

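Of 119 refits of single factors, 96 kept direction and call, 5 lost and 6 gained a call and 12 changed sign; for 377 refits of other named genes these were 325, 23, 5 and 24. On library totals 12653 genes were called higher and 53 lower, with 10 and 0 of the 10 factors and 81 and 0 of the other list genes, and the median of the factors was 3.29. There Tfam (2.60), Tfb1m (2.96), Tfb2m (1.90) and Polg (3.10) changed sign, as did Tefm (3.06), Clpx (1.57), Atad3a (2.76), Suclg1 (1.58), Hsd17b10 (1.69), Rexo2 (1.92), Lrpprc (2.05), Mto1 (1.12), Cdk5rap1 (1.89), Trit1 (2.18), Gfm1 (1.83), Mtif3 (2.44), Prkaa2 (1.02), Sox9 (1.39), Ins2 (3.12) and Plvap (2.33). With at least 10 CPM in 3 libraries, 1443 genes were called higher and 1425 lower, 6 of them in the other lists among the lower; 0 and 0 factors were left to call, so that setting gives them no fold change, and Ins2 was 0.16. In thinned libraries 2 factors were called lower, their median was -0.084, and Polrmt (-0.084), Mterf3 (-0.018) and Tefm (0.033) changed sign. Leaving out 1 library gave 0 to 1 factors called higher and 0 to 1 lower, a median of -0.077 to 0.061, and 3 to 7 other list genes called higher and 12 to 18 lower. Fold changes then ran from -0.19 to 0.71 for Gabpb1, -0.12 to 0.19 for Polrmt, -0.23 to 0.33 for Ssbp1, -0.057 to 1.79 for Mterf3, -0.58 to 0.63 for Tefm and -0.29 to 0.22 for Ins2.

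With the replicate block 1 factor was called higher (Nrf1, 0.95; adjusted p = 0.0468) and 1 lower (Tfb2m, -1.30; 0.00653), and 2884 and 2505 of all genes; Tefm was 0.032 and Cdk5rap1 lost its call. Deviations of same-numbered libraries correlated at 0.01, -0.03 and -0.01, so they showed no shared deviation. With 3 libraries per group this cannot tell whether the numbers mark a pairing, and the labels do not say.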

Other observations

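Ratios of the counts of overlapping genes on opposite strands varied little for 1 pair and more for 2 others. Tiam2 over Tfb1m was 0.824, 1.00 and 1.10 in control replicates 1 to 3 and 0.969, 0.939 and 0.737 in cKO. Trmt112 over Esrra, which share 73 bases at their 3' ends, was 1.195, 1.17 and 1.10 in control and 1.13, 1.14 and 1.13 in cKO. Fanci over Polg was 0.432, 0.424, 0.558, 0.464, 0.377 and 0.339 in the same order. These pairs were noticed after the values were seen, and whether a read was counted for both genes of a pair was not tested.

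The spread between replicates differed by gene and group. The coefficient of variation of CPM in control was 53.9% for Gabpa and 60.6% for Gabpb1, with 9 to 37 counts per library, but 7.44% for Polrmt with 15 to 16 counts. In cKO it was 47.0% for Tfb2m and 38.9% for Ssbp1, the highest of the 10, and 7.88% for Polg, the lowest.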
